A study of Mus musculus with 4 samples.

Results

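Keratin and keratin-associated protein genes made up 109 of the 46406 rows in this table of chromatin accessibility. They were chosen by symbol, as every row named Krt or Krtap followed by a digit. The set held 4 keratins of simple epithelia (Krt7, Krt8, Krt18 and Krt19), 26 other type I keratins, 23 other type II keratins, 54 Krtap genes and 2 keratin pseudogenes (Krt8-ps and Krt74). Of these rows 107 matched the RefSeq annotation of GRCm38, and Krtap19-9a and Krtap28-10 did not.

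All 4 libraries were ATAC-seq libraries of J1 mouse embryonic stem cells, a line from 129-strain blastocysts, cultured without feeders and labelled with passage PN+8. ATAC-seq uses the Tn5 transposase to tag open DNA, so reads accumulate where chromatin is accessible. Controls 1 and 2 carried the genotype label wild type. Zscan4 OE 1 and 2, with the genotype labels Zscan4 OE1 and Zscan4 OE2, overexpressed Zscan4, a zinc finger gene of the 2-cell embryo. The labels do not give the construct or promoter that drove Zscan4, whether OE1 and OE2 are different clones, nor whether replicates came from separate cultures, so a p-value here measures only the spread between these libraries. The series title concerns Zscan4 and chromatin accessibility in embryonic stem cells, and the comparison asks which genes differed in accessibility between the groups.

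Keratins are the intermediate filament proteins of epithelia. A type I and a type II keratin pair to form the filament, and each epithelium uses its own pairs: Krt8 with Krt18 in simple epithelia, including the trophectoderm of the blastocyst, Krt5 with Krt14 in basal epidermis, and Krt1 with Krt10 in the layers above. Krtap genes encode small matrix proteins, rich in cysteine or in glycine and tyrosine, that fill the space between keratin filaments in the hair shaft. In the mouse the type I genes lie in a cluster on chromosome 11 with many Krtap genes among them, and the type II genes, with Krt18 at the edge, in a cluster on chromosome 15. Embryonic stem cells are pluripotent and are not known for hair or epidermal keratins.

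Each value covered 1 gene. The recovered feature lengths had a median of 30.2% of the gene's span in keratins and were close to the whole span in most Krtap genes, which have a single exon, and the values are called exon values on that basis. The deposited RPKM values (RPM, which is reads per 1000000 reads of the library, divided by the feature's length in kilobases) used library totals that changed from row to row. Each was rescaled to the total of its own library, and all RPKM values here are rescaled ones. The libraries were shallow, at 1061428, 2903602, 3605774 and 4899494 reads for controls 1 and 2 and Zscan4 OE 1 and 2, and 9.38% to 12.8% of them lay on exons. In a feature of 2000 bp, 3 reads, the limit that a count of 0 allows, were worth 1.41, 0.517, 0.416 and 0.306 RPKM. Most single members below lie near those limits. Intervals and limits cover counting error only. In bulk libraries, a few cells with an open gene and a small change in all cells cannot be told apart. Of 8 rows of the Zscan4 cluster 6 were at 0 in all libraries and the others held 4 reads in all, so these values check no label. The 16 pluripotency genes of a fixed list stood at 1.83, 1.26, 2.32 and 1.39 RPKM, taken over summed reads and lengths, above the whole table at 1.06, 0.801, 1.09 and 0.848. The 7 epithelial markers of another list stood above it too, at 1.34, 1.30, 1.49 and 1.13 RPKM. So did 9 listed trophectoderm genes, at 1.12, 0.895, 1.20 and 1.04. Endoderm markers did so in the controls only, at 1.44 and 1.31, and fibroblast markers in control 2 only, at 0.808. A value above the table was thus not particular to pluripotency genes.

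The regions upstream of these genes differed in sequence between the groups of members, and the examples below show that difference. RefSeq promoters (GRCm38.p6) were at hand for 83 members, 3 of the simple-epithelium keratins among them, and the 250 bases before the start were searched on both strands. TATAAA, the core of the TATA box, occurred in 38 of 47 Krtap promoters (80.9%), 12 of 20 other type I promoters (60%), 5 of 13 other type II promoters (38.5%) and 0 of 3 simple-epithelium promoters. Among all 27025 promoters of the same length it occurred in 13.0%. On the strand of the gene and 25 to 40 bases before the start, TATAAA was found in 28 Krtap promoters (59.6%) and in 2.13% of all promoters. The other type I keratins had it there in 10 promoters (50%) and the other type II keratins in 3 (23.1%). GGGCGG, the GC box bound by Sp1, occurred in Krt7 and in 1 other type II keratin. It occurred in 0 of 47 Krtap and 0 of 20 other type I promoters, against 32.9% of all. TGCACAC, a sequence known to be bound by Zscan4 proteins, occurred in Krt18 and Krtap22-2 alone among the members (2.41%), against 3.49% of all promoters. Median GC content was 60.4% for the simple-epithelium keratins, 44.2% for the other type I, 50% for the other type II and 40.4% for Krtap genes, against 52% for all. The exon reads do not measure these regions. The last 150 bases before the start follow for 3 simple-epithelium keratins, 2 other type I keratins and 2 Krtap genes, with matches to these 3 motifs on either strand in capitals.
Krt7, chr15:101412253-101412402, + strand: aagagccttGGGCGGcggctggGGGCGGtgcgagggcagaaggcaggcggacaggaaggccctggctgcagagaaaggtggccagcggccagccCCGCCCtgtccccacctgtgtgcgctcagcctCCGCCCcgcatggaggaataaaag
Krt8, chr15:102004343-102004492, - strand: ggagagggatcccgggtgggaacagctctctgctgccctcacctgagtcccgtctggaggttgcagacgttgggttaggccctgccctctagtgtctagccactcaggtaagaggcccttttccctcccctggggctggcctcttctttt
Krt18, chr15:102028066-102028215, + strand: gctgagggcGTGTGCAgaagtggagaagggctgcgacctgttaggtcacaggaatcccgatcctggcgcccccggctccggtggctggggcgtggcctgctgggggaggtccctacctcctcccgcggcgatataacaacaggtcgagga
Krt10, chr11:99389365-99389514, - strand: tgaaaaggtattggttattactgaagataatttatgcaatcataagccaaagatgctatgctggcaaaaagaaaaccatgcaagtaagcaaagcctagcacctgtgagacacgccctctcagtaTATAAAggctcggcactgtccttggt
Krt31, chr11:100050552-100050701, - strand: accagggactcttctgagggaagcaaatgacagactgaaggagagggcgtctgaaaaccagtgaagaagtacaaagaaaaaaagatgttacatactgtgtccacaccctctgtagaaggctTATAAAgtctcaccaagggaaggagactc
Krtap9-5, chr11:99948274-99948423, + strand: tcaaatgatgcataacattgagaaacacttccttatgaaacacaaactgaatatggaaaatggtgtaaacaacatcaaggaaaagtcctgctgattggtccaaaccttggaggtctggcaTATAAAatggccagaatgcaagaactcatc
Krtap16-1, chr11:99986594-99986743, - strand: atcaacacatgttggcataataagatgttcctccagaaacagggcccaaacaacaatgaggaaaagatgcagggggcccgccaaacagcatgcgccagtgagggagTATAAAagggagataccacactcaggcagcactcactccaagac
In these stretches Krt10, Krt31, Krtap9-5 and Krtap16-1 each held TATAAA, at 26, 29, 30 and 44 bases before the start. The capitals in Krt7 are GC boxes, and those in Krt18 are the TGCACAC match on the opposite strand.

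Each of the 4 main groups of members had a smaller mean exon accessibility in Zscan4 OE than in controls. Per length, the simple-epithelium keratins stood at 0.897 ± 0.0774 RPKM in controls against 0.728 ± 0.0732 in Zscan4 OE (SD, n = 2, reads and lengths summed over members with reads). Rows without reads had no recovered length, so the summed length of Krtap genes leaves out 5 of them. The other type I keratins were at 0.915 ± 0.144 and 0.784 ± 0.0953, the other type II keratins at 0.784 ± 0.0793 and 0.667 ± 0.0803, and Krtap genes at 0.590 ± 0.0597 and 0.523 ± 0.0215 (SD, n = 2). Among these 4 groups Krtap genes had the lowest value per length in each library. The 2 pseudogenes held 0, 7, 1 and 4 reads in controls 1 and 2 and Zscan4 OE 1 and 2. The ratios of Zscan4 OE to control were 0.812, 0.857, 0.850 and 0.885 in that order. In the whole table the ratio was 1.05, from 0.928 ± 0.180 and 0.970 ± 0.173 RPKM (SD, n = 2), and its libraries overlapped. The libraries of both groups overlapped for the other type I keratins. They did not overlap for the 3 other groups, but there the counting intervals of all 4 libraries did. With 2 libraries against 2 an exact two-sided permutation test cannot go below p = 0.333, so these ratios were not tested. In 2 groups the direction rested on 1 gene each: without Krt7 the simple-epithelium ratio was 1.40, and without Krtap9-5 the Krtap ratio was 1.08.

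**Figure D1:**
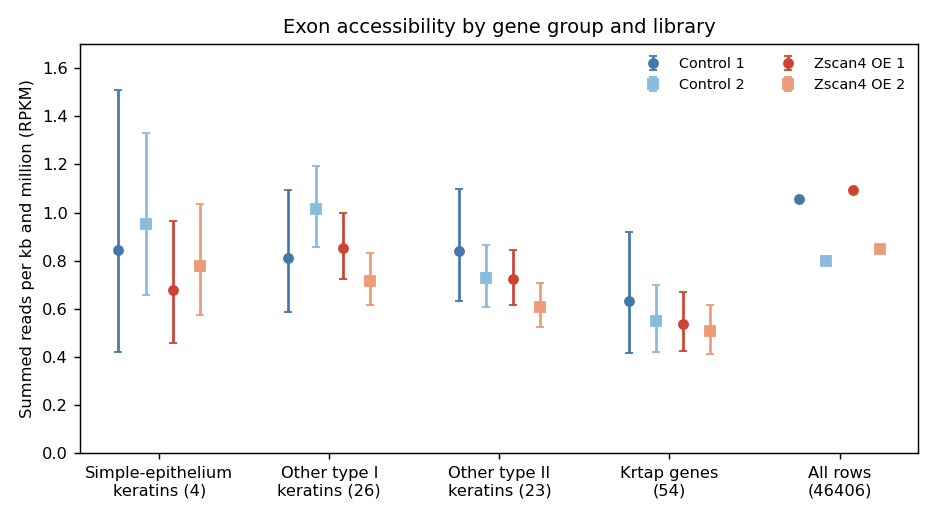
Summed exon accessibility (RPKM, vertical axis) for each gene group and, at the right, all 46406 rows; points are libraries and bars exact Poisson 95% intervals for counting error. Krtap genes lie lowest of the 4 member groups in each library, and within each member group the intervals overlap, except for those of control 2 and Zscan4 OE 2 in the other type I keratins.

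None of the 102 members that could be tested differed between the groups at an adjusted p under 0.05 (limma on log2(RPKM + 0.1), Benjamini-Hochberg adjustment over all 42989 tested rows). The whole table gave 0 calls too, a background of 0%. The smallest adjusted p of a member was 0.563 (Krtap6-2, limma). At an unadjusted p under 0.05, limma gave 5 members higher in Zscan4 OE (4.9%, background 5.09%), which were Krt18, Krt16, Krtap5-2, Krtap6-2 and Krtap16-3. Krtap9-5 and Krtap28-10 were the 2 lower ones (1.96%, background 1.33%). Values did not overlap between the groups in 18 members with higher values in Zscan4 OE (17.6%, background 19.6%) and in 13 with lower values (12.7%, background 10.1%). These shares lay near the background of the whole table. Among protein-coding rows alone the shares at unadjusted p under 0.05 were smaller, at 1.38% higher and 0.546% lower (limma). Those without overlap were 20.1% and 11.3% there. Of the 5 higher members, all but Krt18 had no control reads. Leaving out 1 Zscan4 OE library changed the calls, for members and for many rows of the whole table alike. The members that passed then were all higher, and each had no reads in either control. A log2 difference below is Zscan4 OE minus control on the log2(RPKM + 0.1) scale. The 0.1 understates changes of low values, but a library at 0 reads can also turn a difference against the means. Krt42, named after its values were seen, had 0 reads in control 1. Its mean was 1.27 RPKM in controls and 0.860 in Zscan4 OE, but its log2 difference was 0.77.

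The simple-epithelium keratins did not share a direction. Krt7, a type II keratin of glandular and ductal epithelia (chromosome 15, 101412403 to 101427806, GRCm38), had 8, 21, 13 and 20 reads in controls 1 and 2 and Zscan4 OE 1 and 2, or 1.07, 1.03, 0.511 and 0.579 RPKM. Both controls were higher than both Zscan4 OE libraries. Its feature of 7049 bp was the longest of all members, and its 62 reads were the most of any member. The means were 1.05 ± 0.0306 and 0.545 ± 0.0478 RPKM (SD, n = 2), with a log2 difference of −0.83 (SE 0.503, limma adjusted p = 0.869) that was 0.57 in the values as deposited. The median of all tested rows was 1.40 as deposited and 0.28 after rescaling. A positive value as deposited, here and below, can therefore lie under the median of all rows.

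Krt8 and Krt18, partners in the filaments of simple epithelia, lie 23873 bp apart at one end of the type II cluster and were both higher in Zscan4 OE. Krt8 (chromosome 15, 101996711 to 102004342) had 2, 3, 7 and 13 reads, or 0.962, 0.528, 0.991 and 1.36 RPKM. The groups did not overlap, but control 1 and Zscan4 OE 1 were nearly level. Krt18 (chromosome 15, 102028216 to 102032026) had 0, 1, 6 and 9 reads, or 0, 0.240, 1.16 and 1.28 RPKM. Both controls had lower values than both Zscan4 OE libraries, at 0.120 ± 0.169 against 1.22 ± 0.0851 RPKM (SD, n = 2), but the limit of 3 reads in control 1 lies above both Zscan4 OE values. The log2 difference was 2.84 (SE 0.890, limma adjusted p = 0.627), the largest of the 53 keratins apart from Krt16, which had no control reads. Its size followed the pseudocount, at 4.62 with 0.01 and 0.99 with 1, and the controls, at 1.95 without control 1 and 3.72 without control 2. The Krt8 log2 difference was 0.63 (SE 0.551, limma adjusted p = 0.869). Together the pair had 2, 4, 13 and 22 reads, or 1.88 RPM in control 1 (95% interval 0.228 to 6.81), 1.38 in control 2 (0.375 to 3.53), 3.61 in Zscan4 OE 1 (1.92 to 6.17) and 4.49 in Zscan4 OE 2 (2.81 to 6.798). The interval of control 1 covered both Zscan4 OE values. The pair was singled out after its values were seen.

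Krt19, another type I keratin of simple epithelia, lies in the cluster on chromosome 11 (100140810 to 100145926). It had 1, 9, 4 and 5 reads, or 0.508, 1.67, 0.598 and 0.550 RPKM. Control 2 alone was high, and control 1 was the lowest of the 4 libraries. The log2 difference of −0.62 (SE 0.724, limma adjusted p = 0.872) became 0.15 without control 2 and −1.39 without control 1, and was 1.11 in the values as deposited.

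**Figure D2:**
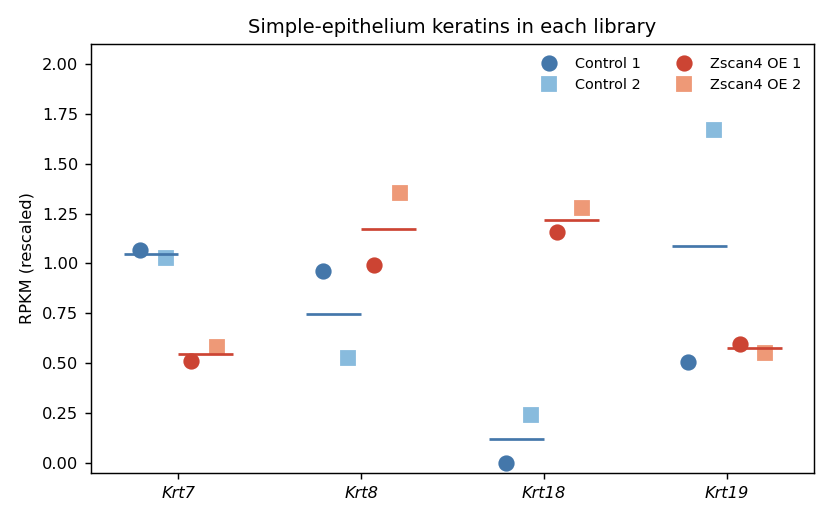
Rescaled RPKM (vertical axis) of the 4 simple-epithelium keratins in each library, with horizontal lines at the mean of the 2 controls (blue) and of the 2 Zscan4 OE libraries (red). Krt8 and Krt18 are higher in both Zscan4 OE libraries, Krt7 is lower in both, and Krt19 overlaps.

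Of the 109 members, 49 lay on chromosome 11, and this chromosome held a smaller share of exon reads in Zscan4 OE. The members there were 27 type I keratins, Krt19 included, and 22 Krtap genes, between 99232761 and 100269951 (GRCm38). Chromosome 11 took 9.12% and 9.32% of the reads on annotated genes in controls 1 and 2, against 7.26% and 7.17% with Zscan4 OE. The means were 9.22% ± 0.139 and 7.21% ± 0.0655 (SD, n = 2), a ratio of 0.783 that was the lowest of the 19 autosomes and X. The next lowest were X at 0.862 and chromosome 15 at 0.916, and the highest was chromosome 6 at 1.202. Controls 1 and 2 lay close together on chromosome 11, while on chromosome 6 they were 4.89% and 3.80%. The median log2 difference of 2246 tested genes on chromosome 11 was −0.17, against 0.28 for all tested rows. The 49 members there had 53.7 and 65.1 RPM in the controls against 53.2 and 42.7 with Zscan4 OE, a ratio of 0.807. Scaled by the reads on chromosome 11, a choice made after seeing the data, the ratio was 0.951. Reads depend on the number of copies of a chromosome as well as on its accessibility, and in this share these cannot be told apart.

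**Figure D3:**
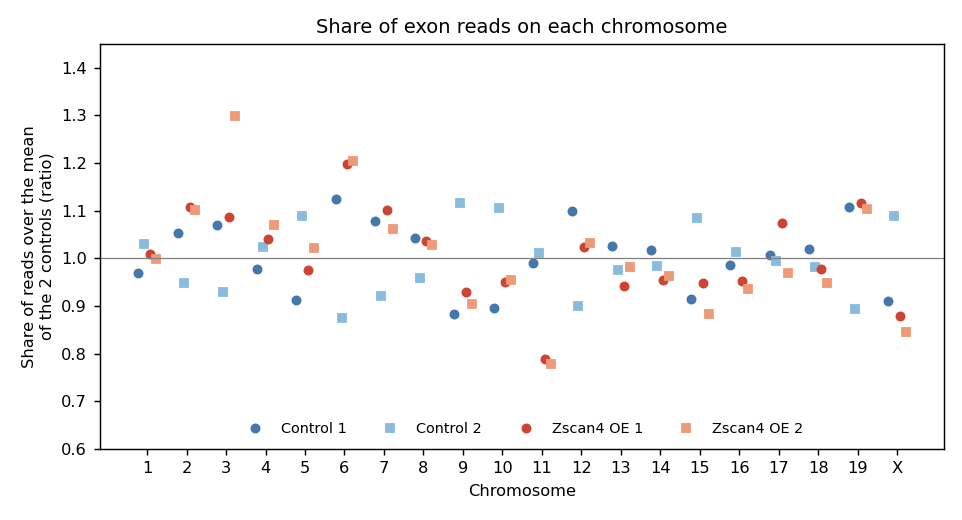
Share of exon reads on each chromosome in each library (points), divided by the mean share of the 2 controls (vertical axis, ratio); the line marks 1. On chromosome 11 both Zscan4 OE libraries lie near 0.78 while both controls lie near 1.

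The other type I keratins all lie on chromosome 11. Their 26 members, all of which had reads and were tested, had a median log2 difference of −0.17, which was 1.19 in the values as deposited, 0.082 when scaled by chromosome 11, 0.16 without Zscan4 OE 1 and −0.32 without control 1. Of the 26 differences 11 were positive (42.3%) and 15 negative. Krt20 and Krt42 had positive differences but lower mean RPKM in Zscan4 OE. Krt9, Krt12 and Krt33a had negative differences but higher means, with reads in each library. Krt20, Krt9 and Krt33a are named after their values were seen. Relative to the median of all tested rows the median was −0.44, and between −0.44 and −0.12 under the 5 other scalings of the values. It came to −0.0062 without Zscan4 OE 1. Their summed values were 40.5 and 50.6 RPM in the controls against 42.4 and 35.7 with Zscan4 OE. Scaled by the reads on chromosome 11, their ratio moved from 0.857 to 1.01.

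Krt10, Krt32 and Krt23 had the largest statistics towards lower values in Zscan4 OE among the other type I keratins. Krt10, a keratin of suprabasal epidermis (99385254 to 99397449), had 4, 10, 8 and 5 reads, or 1.78, 1.63, 1.05 and 0.483 RPKM. Krt32, a hair keratin (100080848 to 100088269), had 3, 9, 6 and 10 reads, or 1.64, 1.80, 0.967 and 1.19 RPKM. In both genes each control was higher than each Zscan4 OE library, with log2 differences of −1.14 (SE 0.552, but 0.33 in the values as deposited) and −0.64 (SE 0.435). Krt23, another type I keratin, had the same order at 1.204, 1.76, 0.886 and 0.783 RPKM, with a log2 difference of −0.74 (SE 0.478). The adjusted p was 0.869 for each of the 3 (limma).

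Krt12, the keratin of corneal epithelium, had the most reads of this group (3, 8, 14 and 9) and 1.53, 1.49, 2.096 and 0.992 RPKM. The Zscan4 OE libraries fell on either side of the controls. Krt26, an inner root sheath keratin of the hair follicle, had 1, 16, 5 and 7 reads, or 0.257, 1.502, 0.378 and 0.390 RPKM, so control 2 stood alone. Krt36, a hair keratin, was at 1.13, 1.85, 1.49 and 0.855 RPKM, and Krt13, a keratin of stratified mucosa, at 1.55, 0.946, 0.761 and 1.46. In these last 2 genes the groups overlapped.

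Krt16, Krt31 and Krt27 had the largest statistics towards higher values. Krt16, a keratin induced in stressed and wounded epidermis (100246091 to 100248902), had 0, 0, 2 and 8 reads. With both controls at 0, its summed Zscan4 OE reads, per library total, were 1.55 times a floor of 3 reads over the controls. This leaves out the counting error of the Zscan4 OE reads (limma adjusted p = 0.744). Krt31, a hair cortex keratin, had 1, 2, 8 and 8 reads, or 0.596, 0.436, 1.403 and 1.03 RPKM, and a log2 difference of 1.096 (SE 0.526). Krt27, an inner root sheath keratin, had 0, 2, 5 and 5 reads and a log2 difference of 1.896 (SE 1.08), or 0.67 without control 1 and 3.12 without control 2. Both Zscan4 OE libraries were higher than both controls in each of the 3 genes, and the adjusted p of Krt31 and Krt27 was 0.869 (limma).

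**Figure D4:**
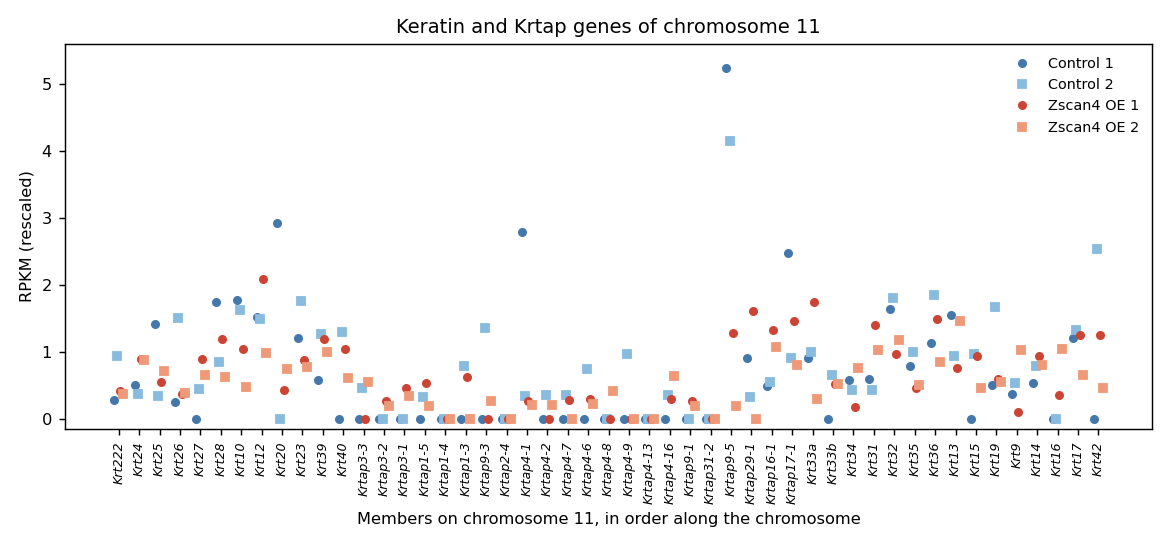
Rescaled RPKM (vertical axis) of the 49 members on chromosome 11 in each library, in order along the chromosome (horizontal axis, not to scale). Krtap9-5 is high in both controls, at 5.25 and 4.16 RPKM, while many of the Krtap genes are at 0 in 1 or more libraries.

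The other type II keratins, on chromosome 15 between 101348315 and 102032026 together with Krt7, Krt8 and Krt18, showed no common direction in log2 differences. Their 23 members all had reads and were tested. Of these 12 had positive and 11 negative log2 differences, with a median of 0.12, which was −0.15 when each library was centred on its median and −0.42 with quantile normalization. Relative to all tested rows it was −0.16. Krt71, Krt73, Krt76 and Krt81, named after their values were seen, had positive differences but lower mean RPKM in Zscan4 OE. No member of this group with a negative difference had a higher mean. Summed values were 50.9 and 44.1 RPM in the controls against 43.8 and 36.9 with Zscan4 OE. Chromosome 15 as a whole had 3.74% and 4.44% of reads in the controls against 3.88% and 3.61% with Zscan4 OE.

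Among the 6 most-read of the other type II keratins the groups overlapped, apart from Krt79. Krt80, an epithelial keratin with 7, 13, 21 and 11 reads, was at 1.03, 0.700, 0.911 and 0.351 RPKM. Krt77 was at 1.61, 0.705, 1.04 and 1.04 RPKM, and Krt75, of the companion layer of the hair follicle, at 0.288, 0.949, 1.19 and 0.625. Krt78 was at 0.548, 0.802, 0.403 and 0.772 RPKM. The groups overlapped in these 4 genes, and in each the 2 controls differed by more than the group means did. Krt1, the partner of Krt10 in suprabasal epidermis (101845426 to 101850786), had 8, 6, 9 and 6 reads, or 1.71, 0.468, 0.565 and 0.277 RPKM. Control 1 alone was high, and the log2 difference was −1.02 (SE 0.828, limma adjusted p = 0.869), 0.26 in the values as deposited and −0.18 without control 1.

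Krt79, Krt82 and Krt84 were lower in both Zscan4 OE libraries than in both controls. Krt79, expressed in sebaceous gland and hair canal, had 4, 16, 9 and 15 reads, or 0.793, 1.16, 0.525 and 0.644 RPKM. Krt82, of the hair cuticle, was at 1.79, 0.979, 0.657 and 0.774 RPKM, and Krt84 at 0.714, 1.04, 0.210 and 0.541. The log2 differences of Krt82 and Krt84 were −0.81 (SE 0.537) and −1.11 (SE 0.689), each with an adjusted p of 0.869 (limma), and were 0.72 and 0.61 in the values as deposited.

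Krt88, Krt83 and Krt86 had the largest positive statistics of the 23 other type II keratins. Krt88 (101447724 to 101453925) had 2, 1, 8 and 10 reads over a recovered feature of 902 bp, or 2.09, 0.382, 2.46 and 2.26 RPKM. Only control 2 was low, and the log2 difference was 1.26 (SE 0.842), or 2.35 without control 1 and 0.17 without control 2. Krt83 and Krt86, keratins of the hair cortex, had 0, 2, 3 and 4 and 0, 2, 2 and 5 reads, with log2 differences of 1.33 (SE 1.103) and 1.197 (SE 1.14). These were 0.21 and 0.11 without control 1, and 2.45 and 2.28 without control 2. The adjusted p was 0.869 for all 3 (limma). Krt6a, the wound-induced partner of Krt16, had 0, 1, 16 and 0 reads, so Zscan4 OE 1 stood alone. It is named after its values were seen. Krt6a and Krt6b are close paralogs, and nothing at hand says how reads matching both were counted.

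Krtap genes were short and nearly empty. Of 54 genes, 49 had any read, 47 were tested, and 34 had at most 4 reads over all libraries. Krtap1-4, Krtap2-4, Krtap4-13, Krtap10-4 and Krtap31-2 had none. Of the 54, 38 were at 0 in control 1 and 24 in control 2. In Zscan4 OE 1 and 2, 20 and 14 were at 0, so the number fell in the order of the library totals. The recovered features had a median of 786 bp, against 2235 bp for other type II and 1761 bp for other type I keratins. Of 47 Krtap genes with reads and a RefSeq span, 31 had a recovered length within 10 bp of that span, and 15 matched it exactly. Over the 104 members with reads, length and reads rose together (Spearman's rho 0.83). This is a description of genes that share their 4 libraries.

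By place, the Krtap genes of chromosome 11 had lower summed values in Zscan4 OE, and those of chromosomes 16 and 7 did not. The 22 genes on chromosome 11 had 12.2 and 11.4 RPM in the controls against 9.71 and 5.92 with Zscan4 OE, a ratio of 0.662 that was 1.04 without Krtap9-5. The 22 genes on chromosome 16 had 10.4 and 5.85 in the controls against 8.597 and 10.4 with Zscan4 OE, and these overlapped. The 4 Krtap5 genes on chromosome 7 had 0, 3, 7 and 12 reads. Their log2 differences were positive in 4 of 4, and the 95% interval of control 1, up to 3.48 RPM, covered both Zscan4 OE values of 1.94 and 2.45. The difference between these clusters was not tested. The median log2 difference of the 47 tested Krtap genes was 0.39 (29 positive and 18 negative). It was −0.19 with quantile normalization, and 0.00 with the 13 genes that were at 0 in both libraries of a group set at their bound. With the same rule the median of all tested rows was 0.00 too.

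Krtap9-5 stood out for its controls. This gene of a cysteine-rich family, on chromosome 11 (99948424 to 99949551), had 6, 13, 5 and 1 reads, or 5.25, 4.16, 1.29 and 0.190 RPKM. Both controls were higher than both Zscan4 OE libraries, at 4.70 ± 0.772 against 0.739 ± 0.776 RPKM (SD, n = 2). The log2 difference was −2.91 (SE 0.869, limma adjusted p = 0.588), and −2.69 when scaled by the reads on its chromosome. It was −4.04 without Zscan4 OE 1 and −1.78 without Zscan4 OE 2. It was the member with the most reads among Krtap genes, and the members of its family are similar in sequence. Krtap28-10, not matched to the annotation, had 1, 7, 1 and 2 reads (0.984, 2.52, 0.290 and 0.427 RPKM) and a log2 difference of −1.895 (SE 0.670, limma adjusted p = 0.730), or −2.53 without control 1 and −1.26 without control 2. Krtap19-5, of a glycine- and tyrosine-rich family, had 1, 1, 1 and 0 reads.

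Other Krtap genes had few reads. Krtap16-1 (chromosome 11, 99984703 to 99986593) had 1, 3, 9 and 10 reads, or 0.499, 0.547, 1.32 and 1.08 RPKM, with no overlap between the groups. Krtap26-1 had 0, 2, 5 and 6 reads, also without overlap, and Krtap21-1 had 1, 2, 2 and 10, where Zscan4 OE 2 alone was high. Krtap17-1 had 2, 2, 4 and 3 reads, or 2.48, 0.905, 1.46 and 0.805 RPKM, and its groups overlapped. Krtap6-2 and Krtap16-3 (chromosome 16) and Krtap5-2 (chromosome 7, 142174532 to 142176005) had the largest positive statistics. They had no control reads, and 2 and 3, 1 and 4, and 3 and 5 reads in Zscan4 OE 1 and 2. Per library total, Krtap5-2 was at 1.24 times a floor of 3 reads over the controls, and the other 2 did not exceed the floor. The counting error of the Zscan4 OE reads is left out here too. Their adjusted p was 0.563, 0.619 and 0.652 (limma).

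Differences in this table depended on the number of reads, so members were set beside rows with as many reads. Over all tested rows the median log2 difference ran from 1.25 in rows with 1 to 4 reads, where values at 0 in a group follow the pseudocount, to 0.15 in rows with 20 to 49. Of the 25 keratins with 20 to 49 reads 8 had a positive difference (32%), against 59.2% of all rows in that range, and their median was −0.21. Of 24 keratins with 10 to 19 reads 15 were positive (62.5%), against 61.0% of all rows, and their median was 0.37. Of 27 Krtap genes with 1 to 4 reads 17 were positive (63.0%), against 63.2%. Of the keratins with 20 to 49 reads 2 were higher and 6 lower without overlap, or 8% and 24%, where the whole table gave 20.5% and 12.5%. This gap was not tested. Of these 25 keratins, 12 were type I keratins on chromosome 11, where the median log2 difference of all tested genes was −0.17. Rows of the same chromosome were not set apart in this comparison.

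**Figure D5:**
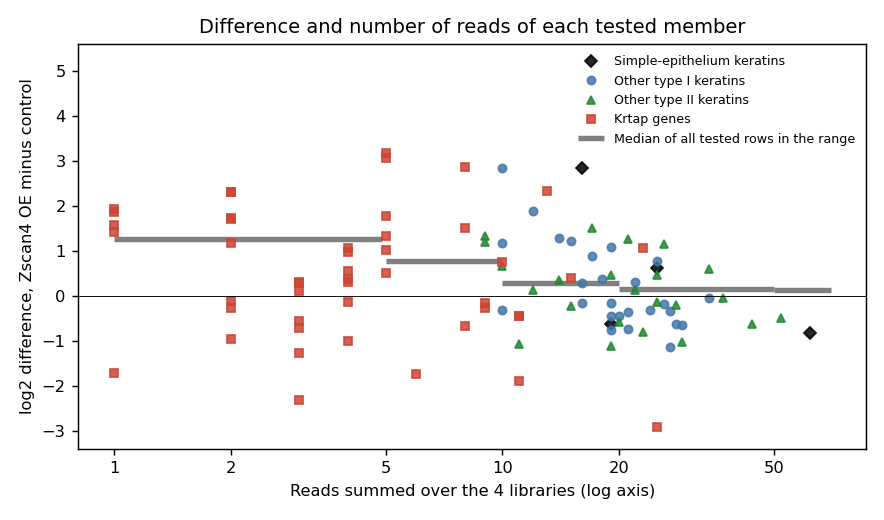
log2 difference, Zscan4 OE minus control (vertical axis), of each tested keratin and Krtap gene against its reads summed over the 4 libraries (log axis); grey bars are medians of all tested rows in 5 ranges of reads. Members spread from −2.91 to 3.18, and most keratins with 20 to 49 reads lie below the grey bar.

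Genes that work with keratins gave no call either. As background, 62.0% of all tested rows had a positive difference, with a median of 0.28. Among protein-coding rows these values were 60.3% and 0.15. Of 18 desmosome genes, which anchor keratin filaments at cell contacts, 13 had positive and 5 negative differences (median log2 difference 0.13). Dsp, the desmoplakin that binds the filaments, was at 0.780, 0.713, 0.718 and 0.761 RPKM, level in all libraries, and Jup, plakoglobin, at 1.61, 1.34, 1.94 and 1.14. Of 6 hemidesmosome genes 4 were positive (median 0.30). Of 19 tested genes of the cornified envelope 13 were positive, with a median of 0.29, and 0.04 with genes at 0 in a group set at their bound. Those genes were the least accessible list per length, at 0.402, 0.449, 0.456 and 0.435 RPKM over summed reads. Of 20 regulators of epidermis and hair 7 were positive and 13 negative (median −0.18), and of 17 other intermediate filament genes 11 were positive (median 0.22). The number called was 0 in each of these lists (limma, adjusted p under 0.05).

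Marker lists of other cell types also held 0 called genes. The 7 epithelial markers summed to 35.8 and 34.8 RPM in the controls against 39.9 and 30.2 with Zscan4 OE, with 1 at 0 in control 1. A list of 9 trophectoderm genes, which was named as holding no keratins but as written contains Krt8 and Krt18, summed to 30.1 and 24.1 against 32.4 and 28.0, with 1 at 0 in control 1. The 10 fibroblast markers summed to 41.5 and 39.3 against 38.0 and 34.1, with 2 at 0 in control 1, and the 6 endoderm markers to 39.6 and 36.2 against 25.8 and 22.7, with 5 of 6 differences negative. The part of such cells in the keratin values was not tested.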

How the data were processed

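Chromatin accessibility over genes was measured by ATAC-seq in 4 libraries of J1 cells (2 per group). The submitters' processing notes name featureCounts, Bowtie2, Trimmomatic and mm10. Versions, read filters, any Tn5 shift and the annotation were not given in these sources. The authors deposited 1 RPKM value per gene and library. From the values, 8 library totals took turns from row to row. Totals, reads and feature lengths were recovered as the smallest integers that yield the deposited numbers (38361 of 38361 rows with 2 or more values above 0 had exactly 1 rotation; single-value rows with several rotations, 7 members among them, took the shortest length), and each value was rescaled to its library's total. Which total belongs to which column was taken from the most alike shares of reads on exons. Recovered reads and lengths may be low by the same factor. This leaves the RPKM of a gene unchanged but affects read counts, their intervals and sums over genes. Of 1446 short genes with a known length, 76.8% had the annotated length recovered. Among Krtap genes 4 had a length that was a whole fraction of the span, and keratins were not checked in this way. Rows averaging 0.1 RPKM or more entered limma 3.58.1 (R 4.3.3) as log2(RPKM + 0.1), with a trended prior variance, no covariate, both directions and Benjamini-Hochberg adjustment over all tested rows (threshold 0.05). Recovery and tests were tested on simulated data. Alternatives changed the pseudocount, filter, scaling, test, block and libraries. Named are the 4 simple-epithelium keratins and, in each other group, the 6 members with the most reads and the 3 with the largest statistic in each direction. The members and lists were chosen with earlier results of these data known.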

Additional observations from a re-analysis of the deposited data

How the results depend on the processing

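No keratin or Krtap gene passed the threshold with any scaling, pseudocount, filter or test that kept all 4 libraries. Over all rows 5 genes passed among those with 20 reads or more, and 1 with voom on the same rows. Leaving out a library gave 0 to 4349 genes: 4349 without Zscan4 OE 1 (13 members, all higher, among them Krt16, Krtap5-2, Krtap6-2 and Krtap16-3), 3862 without Zscan4 OE 2 (7 members, the same 4 among them), and 0 without either control; the lone library is then assumed to vary like the others, and the cause was not tested. The replicate block gave 0 genes as well; numbers shared by the labels were the only pairing, and the deviations of same-numbered libraries correlated at 0.13 over 19012 genes with 20 reads or more. Of 304 single-gene values under other settings 7 changed sign. In the values as deposited, where the median of all rows was 1.40, they were 0.57 for Krt7, 1.11 for Krt19, 0.33 for Krt10, 0.61 for Krt84, 0.72 for Krt82 and 0.26 for Krt1, and Krt19 ranged from −1.39 to 0.15 when a library was left out.

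Group medians of the log2 difference were unsteady. As deposited they were 1.54 (simple-epithelium), 1.19 (other type I) and 1.08 (other type II). With 20 reads or more they were −0.10 (simple-epithelium), −0.14 (other type II) and −0.93 (2 Krtap genes), and with voom −0.68 (other type I), −0.42 (other type II) and −1.13 (Krtap). Centring on the median gave −0.27 and −0.15 for simple-epithelium and other type II keratins, and quantile normalization −0.42 for each. Leaving out a library gave −0.077 to 0.20 for simple-epithelium, −0.32 to 0.16 for other type I, −0.46 to 0.020 for other type II and 0.24 to 1.43 for Krtap genes. Summed reads in Zscan4 OE over control were 1.40 for the simple-epithelium keratins without Krt7 and 1.08 for Krtap genes without Krtap9-5. Own-chromosome scaling, added after seeing the data, gave 1.01 for other type I keratins, 1.02 for Krtap genes, 0.951 for members on chromosome 11, and a median of 0.14 for simple-epithelium keratins. Depth limits all of these: 57 of the 104 members with reads had none in at least 1 library.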
